A study of Mus musculus with 16 samples.

Results

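The islet RNA-seq levels of 10 receptor genes that tune insulin secretion were described across the 8 founder strains of the diversity outbred (DO) mouse population. The genes were taken by name from the 54146 genes listed in the processed files: Glp1r, Gipr, Gcgr, Ffar1, Gpr119, Sstr3, Adra2a, Galr1, Chrm3 and Casr. The rule is a list of names and uses no measured value, but the list was drawn up with earlier results of these data known. All 10 passed the filter on low counts and were among the 15204 genes tested. The whole series holds 91 libraries of pancreatic islets, in 16 samples of 1 strain and 1 sex each. The strains were 129 (129S1_SvImJ, 10 libraries), AJ (A_J, 14), B6 (C57BL/6J, 18), CAST (CAST_EiJ, 14), NOD (NOD_ShiLtJ, 10), NZO (NZO_HlLtJ, 4), PWK (PWK_PhJ, 5) and WSB (WSB_EiJ, 16). All mice were on a high-fat diet and aged 26 weeks, so no group on another diet and no younger group stands beside them. Of the libraries, 45 carried a female and 46 a male label, and NZO had only 1 male library and PWK only 1 female library. CAST, PWK and WSB descend from wild mice, NOD is known for autoimmune loss of beta cells, and NZO is known for obesity and diabetes.

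Beta cells release insulin in response to glucose, and receptors on their surface raise or lower that release according to hormones, nerve signals and nutrients. All 10 genes encode receptors that span the membrane and act through G proteins. Receptors coupled to Gs raise cyclic AMP (cAMP) and amplify secretion, receptors coupled to Gq act through phospholipase C and calcium released from internal stores, and receptors coupled to Gi lower cAMP and inhibit secretion. Glp1r and Gipr bind the incretins, which are gut hormones released after a meal, Gcgr binds glucagon from neighbouring alpha cells, and Gpr119 binds lipid amides. Ffar1 senses long-chain fatty acids, Chrm3 binds acetylcholine from parasympathetic nerves, and Casr senses extracellular calcium. Sstr3 binds somatostatin from delta cells, Adra2a binds adrenaline and noradrenaline, and Galr1 binds the neuropeptide galanin.

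Expression was measured on 2 scales. The TPM value of a gene is corrected for the length of the gene's transcripts and was used to compare genes with each other. The normalized count is the number of reads assigned to a gene, divided by the relative size of the library, and was used to compare strains. The libraries held 16928552 to 35196145 counts in total, with a median of 27485367. At these depths 3 counts, the smallest level read here as detected, correspond to between 0.0852 and 0.177 CPM (counts scaled to a common library total). The libraries carry no molecular identifiers, so that this floor covers counting error alone and not the copying of molecules. Whether each library came from a separate mouse is not given in the sources used here, so p-values measure the spread between these libraries. The samples are bulk islets, in which fewer cells of a type and less RNA per cell cannot be told apart.

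In 12 libraries the counts of Xist and of Y-linked genes went against the sex label (6 of 129, 2 of NOD and 4 of WSB), and results that rest on sex are given with and without them. The libraries carry running numbers. 129, NOD, NZO and PWK occur only among the numbers 66 to 100, whereas AJ, B6, CAST and WSB occur in both ranges below that (1 to 32 and 34 to 65). The labels say that the animals came in waves but do not tie a wave to a library, so differences between the 2 sets of strains and differences between number ranges cannot be told apart. Defining markers of islet cells were present in every strain. The summed level of 10 beta cell markers had a strain median between 325313 and 526901 TPM, and none of the markers of the 12 cell types examined was at 0 in all libraries of a strain.

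The promoter sequences of the genes with the largest differences between strains are shown for reference. Of the 10 genes, 8 matched the RefSeq promoter table of GRCm38.p6. The 4 printed here are those, among the 5 genes with the largest fitted ratio between strains, that matched. Each is the stretch of the B6 reference genome that ends at the base before the annotated start of the gene, written 5′ to 3′ on the strand of the gene.
Glp1r, chr17:30901617-30901816, plus strand: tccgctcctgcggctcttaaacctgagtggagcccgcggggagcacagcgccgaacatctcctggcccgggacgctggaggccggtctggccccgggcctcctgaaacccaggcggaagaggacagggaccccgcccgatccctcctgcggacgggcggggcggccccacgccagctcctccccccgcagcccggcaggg
Gcgr, chr11:120530477-120530698, plus strand: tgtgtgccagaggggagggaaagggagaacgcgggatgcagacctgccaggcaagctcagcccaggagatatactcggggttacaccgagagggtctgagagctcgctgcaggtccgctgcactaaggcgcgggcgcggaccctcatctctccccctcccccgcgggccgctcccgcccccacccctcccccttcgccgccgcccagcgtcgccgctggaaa
Gpr119, chrX:48674479-48674728, minus strand: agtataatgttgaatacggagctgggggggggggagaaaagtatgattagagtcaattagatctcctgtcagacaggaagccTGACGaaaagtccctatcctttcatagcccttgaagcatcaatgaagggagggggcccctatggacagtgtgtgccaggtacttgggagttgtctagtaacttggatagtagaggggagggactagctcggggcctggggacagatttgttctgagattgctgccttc
Casr, chr16:36562142-36562384, minus strand: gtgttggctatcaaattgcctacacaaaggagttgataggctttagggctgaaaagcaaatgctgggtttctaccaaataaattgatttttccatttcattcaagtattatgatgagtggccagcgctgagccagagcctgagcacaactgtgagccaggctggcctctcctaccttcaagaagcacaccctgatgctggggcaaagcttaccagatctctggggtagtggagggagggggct
Capitals mark a match to TGACG, the core of the cAMP response element, to TATAAA (the TATA box) or to TAATTA (a homeodomain core), each searched on both strands. The Gpr119 stretch held 1 TGACG and the other 3 held none of these motifs. In windows of 250 bases before the start, TGACG occurred in 17.8% of 32851 promoters, TATAAA in 12.4% and TAATTA in 4.84%. The E-box CANNTG, left in lower case, occurred in 66.2% of those windows, and it matched 2 times before Casr and not in the other 3 stretches. G and C made up 75% of the Glp1r stretch and 69.8% of the Gcgr stretch, against 50.4% for Gpr119 and 49% for Casr. A match is a description of the letters and not a measured binding site.

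With the transcript lengths given in the files, Glp1r had the highest level per length of the 10 genes. Its mean was 163 TPM ± 70 (SD, n = 91 libraries), and 98.6% of the protein-coding genes had a lower one. The Gi-coupled receptors Adra2a, at 74.2 ± 18.8, and Sstr3, at 68.9 ± 17.8 TPM, came next and differed by less than their spread between libraries. The other incretin receptor, Gipr, stood at 51.2 ± 16.6 TPM, close to the fatty acid receptor Ffar1 at 47.1 ± 13.6. Gcgr had a mean of 28 ± 12.3, Casr of 24.7 ± 8.59 and Chrm3 of 14.7 ± 4.22 TPM. Galr1, at 7.30 ± 3.71, and Gpr119, at 5.39 ± 3.14 TPM, were the lowest, and their means were still above those of 63.8% and 58.7% of the protein-coding genes. The lowest count of any of the 10 genes in any library was 55, for Gpr119, so none was near the detection floor. The TPM level of Glp1r depends on the length used for it: the files give its transcript 1480 bases, whereas GENCODE M21 gives its coding transcript 5811 bases. The same reads over that length would give a mean of 41.5 TPM, a lower bound, since reads from the rest of the longer transcript would not have been counted. The place of Glp1r among the 10 genes at that length was not tested. Of the 10 genes, Ffar1 had counts that were not whole numbers (beyond a tolerance of 0.005) in 13.2% of the libraries, which means that some of its reads were divided among genes, and the other 9 had none.

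**Figure D1:**
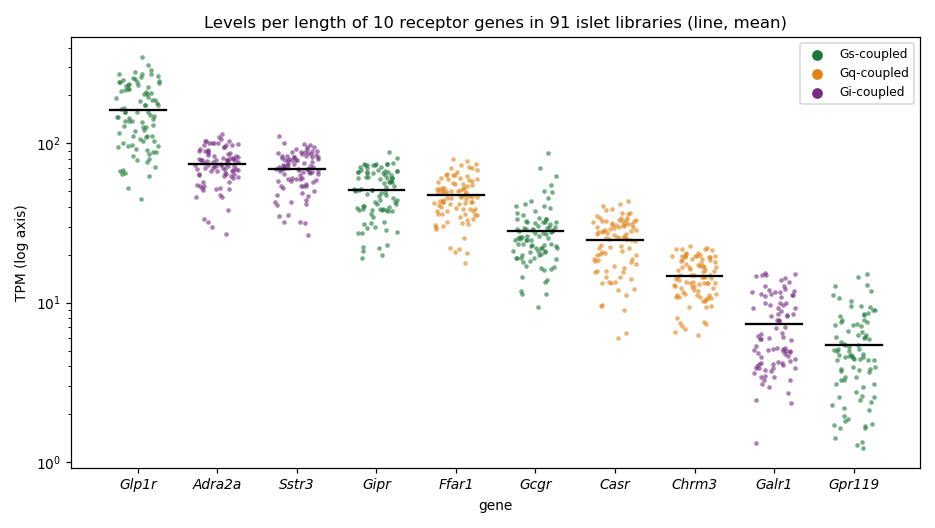
TPM values (log axis) of the 10 receptor genes in the 91 libraries, 1 point per library, coloured by the G protein the receptor couples to, with a line at the mean. With the lengths in the files, Glp1r stands highest at a mean of 163 TPM and Gpr119 lowest at 5.39 TPM.

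Whether the receptors differ between the strains was tested with the quasi-likelihood test of edgeR in a model of strain and sex, with Benjamini-Hochberg adjustment over all genes tested. All 10 genes differed between strains at an adjusted p under 0.05, as did 97.4% of all genes tested, so that this count says little about the receptors. For Adra2a the call was lost with the immune or the beta cell marker level in the model (adjusted p 0.14 and 0.188), and over 129, NOD, NZO and PWK alone it was lost for Adra2a and Sstr3 (adjusted p 0.152 and 0.101, edgeR). For 6 of the 10 (Glp1r, Gipr, Gcgr, Gpr119, Casr and Galr1) the fitted ratio of the highest to the lowest strain was also at least 2, against 44.4% of all genes. The median of this ratio was 2.37 over the 10 genes and 1.83 over all genes. Of the 280 tests of a receptor gene between a pair of strains, 161 (57.5%) were past the threshold, against 50.3% over all genes. Gcgr was higher in PWK than in each of the other 7 strains, and 25.8% of all genes were higher in 1 strain than in each of the others. Casr was lower in NOD, and Galr1 lower in 129, than in each of the others, which held for 21.7% of all genes in some strain. For Galr1, 129 minus NZO was -0.71 ± 0.215 (SE) on the log2 scale (adjusted p 0.00588, edgeR), which includes an NZO library at 675 normalized counts. The other NZO libraries, at 243 to 301, lay within the 129 range of 140 to 332. The share of a gene's variance that lay between strains had a median of 67.7% over the 10 genes and 50.9% over all genes, on the scale log2(normalized count + 1). It was largest for Glp1r (80.1%), Gcgr (73.5%) and Casr (72.8%) and smallest for Adra2a (30.8%), Gipr (37%) and Sstr3 (39.4%). Below, the comparison of the highest with the lowest strain was picked from 28 pairs, and its adjusted p covers the genes but not that choice.

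**Figure D2:**
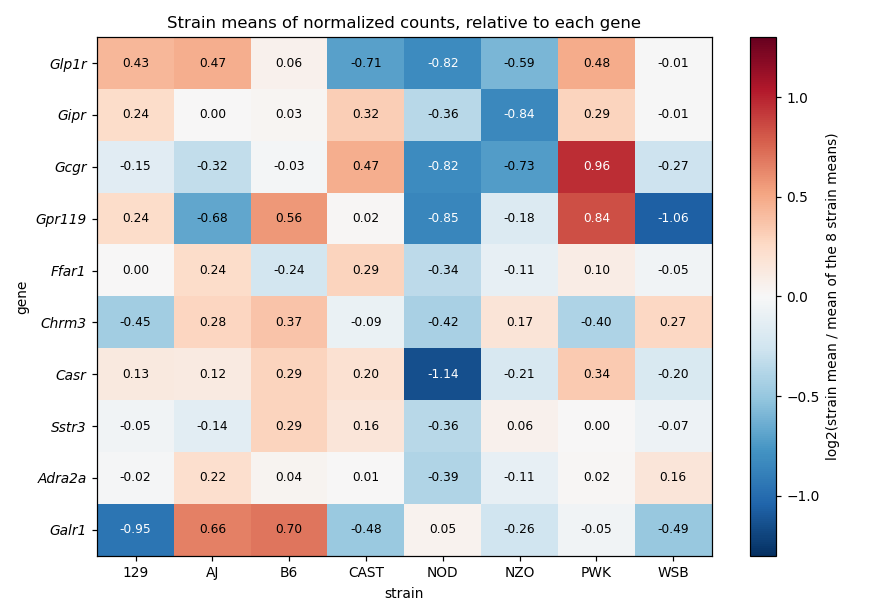
Mean normalized count of each strain (columns) for each receptor gene (rows), as log2 of its ratio to the mean of the 8 strain means. The largest values are 0.96 for Gcgr and 0.84 for Gpr119 in PWK, and the smallest -1.14 for Casr in NOD and -1.06 for Gpr119 in WSB.

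Glp1r (ENSMUSG00000024027.7, chromosome 17 of GRCm38, 30901817 to 30940791), the receptor of glucagon-like peptide 1, was high in PWK, AJ and 129, intermediate in B6 and WSB, and low in NZO, CAST and NOD. Its normalized counts in the 5 PWK libraries were 8796, 7131, 7609, 5744 and 7074, and they ran from 6217 to 8580 (median 6976) in AJ and from 6165 to 7785 (median 6895) in 129. In B6 they ran from 4101 to 6997 (median 5466) and in WSB from 3763 to 7157 (median 5073). Every library of PWK, AJ and 129 was above every library of CAST, NOD and NZO. The 4 NZO libraries stood at 3944, 3167, 3205 and 3505, and the counts ran from 2422 to 4021 (median 3159) in CAST and from 1359 to 3833 (median 3248) in NOD. PWK exceeded NOD by 1.33 ± 0.129 (SE) on the log2 scale, a 2.52-fold difference with an adjusted p of 3.38e-15 (edgeR). The order of the means was PWK, AJ, 129, B6, WSB, NZO, CAST and NOD. Of its 7 steps, those from 129 to B6 (0.37 ± 0.0941, adjusted p 0.000953) and from WSB to NZO (0.60 ± 0.141, adjusted p 0.000319) passed edgeR's test and the other 5 did not. On the TPM scale 129 and PWK were level at 246 TPM and CAST, at 87.7 ± 21.9 TPM (SD, n = 14), was just below NOD at 88.2 ± 28.8 (SD, n = 10).

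Gipr (ENSMUSG00000030406.7, chromosome 7, 19156061 to 19166127), the receptor of the other incretin, showed a different order, with the highest mean normalized count in CAST. Its normalized counts ran from 2757 to 4931 (median 3805) in CAST, and the PWK libraries were at 3590, 3994, 4559, 3069 and 3685. In 129 the counts ran from 3142 to 4104 (median 3714). The intermediate strains spread widely, from 2390 to 4147 (median 3253) in B6, from 1764 to 4180 (median 3237) in AJ and from 1449 to 4469 (median 3164) in WSB. In NOD they ran from 839 to 3503 (median 2575), and the 4 NZO libraries were at 2209, 1674, 1748 and 1291. All libraries of CAST, PWK, 129 and B6 were above all 4 of NZO. CAST exceeded NZO by 1.15 ± 0.233 (SE) on the log2 scale (2.22-fold, adjusted p 2.41e-05, edgeR). With the beta cell marker level in the model the difference was 0.74 (adjusted p 0.00266, edgeR). Among neighbours in the order of means, only WSB and NOD differed past the threshold (0.35 ± 0.154, adjusted p 0.0399, edgeR). On the TPM scale PWK was highest, at 64.8 ± 18.1 (SD, n = 5), and CAST, at 55.5 ± 12.9 TPM (SD, n = 14), was below 129 and AJ as well, while NZO remained lowest at 28.1 ± 7.17 (SD, n = 4). Within AJ, B6 and WSB the counts also differed between the ranges of library numbers, as described further on.

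Gcgr (ENSMUSG00000025127.15, chromosome 11, 120530699 to 120538986), the glucagon receptor, was highest in PWK and next highest in CAST, and the third wild-derived strain, WSB, was below B6 and 129. The PWK libraries had 2490, 2619, 3169, 1763 and 2726 normalized counts, and those of CAST ran from 1157 to 2459 (median 1809). Counts ran from 965 to 1485 (median 1306) in B6, from 961 to 1576 (median 1145) in 129, from 698 to 1342 (median 1095) in WSB and from 890 to 1300 (median 1030) in AJ. The lowest PWK library was above every library of these 4 strains, whereas CAST and PWK overlapped. The 4 NZO libraries were at 699, 816, 862 and 790, and the NOD libraries ran from 326 to 1055 (median 838). PWK exceeded NOD by 1.77 ± 0.145 (SE) on the log2 scale, or 3.42-fold (adjusted p 1.28e-18, edgeR). Of the 7 steps of the order, 3 passed edgeR's test, namely PWK to CAST (0.48 ± 0.138, adjusted p 0.00274), CAST to B6 (0.50 ± 0.0964, adjusted p 7.07e-06) and AJ to NZO (0.41 ± 0.16, adjusted p 0.0346). The summed TPM of 5 delta cell markers was also highest in PWK, with a median of 15427 TPM against 2247 in CAST, and that of 8 alpha cell markers was highest in 129 (30689) and PWK (29920). Their part in the level of Gcgr was not tested.

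Gpr119 (ENSMUSG00000051209.3, chromosome X, 48667979 to 48674478), a receptor of lipid amides, had the largest fitted ratio between strains of the 10 genes. The PWK libraries had 574, 422, 622, 569 and 381 normalized counts, and counts ran from 215 to 689 (median 400) in B6 and from 240 to 449 (median 328) in 129. In CAST they ran from 175 to 493 (median 261), and the NZO libraries were at 280, 229, 230 and 273. Lower counts were found in AJ, from 93 to 265 (median 172), in NOD, from 97 to 312 (median 134), and in WSB, from 77 to 226 (median 122). Every PWK library was above every library of AJ, NOD, NZO and WSB. PWK exceeded WSB by 2.00 ± 0.203 (SE) on the log2 scale, or 4.01-fold (adjusted p 2.61e-14, edgeR). None of the 7 steps between neighbours in the order of means passed the test.

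**Figure D3:**
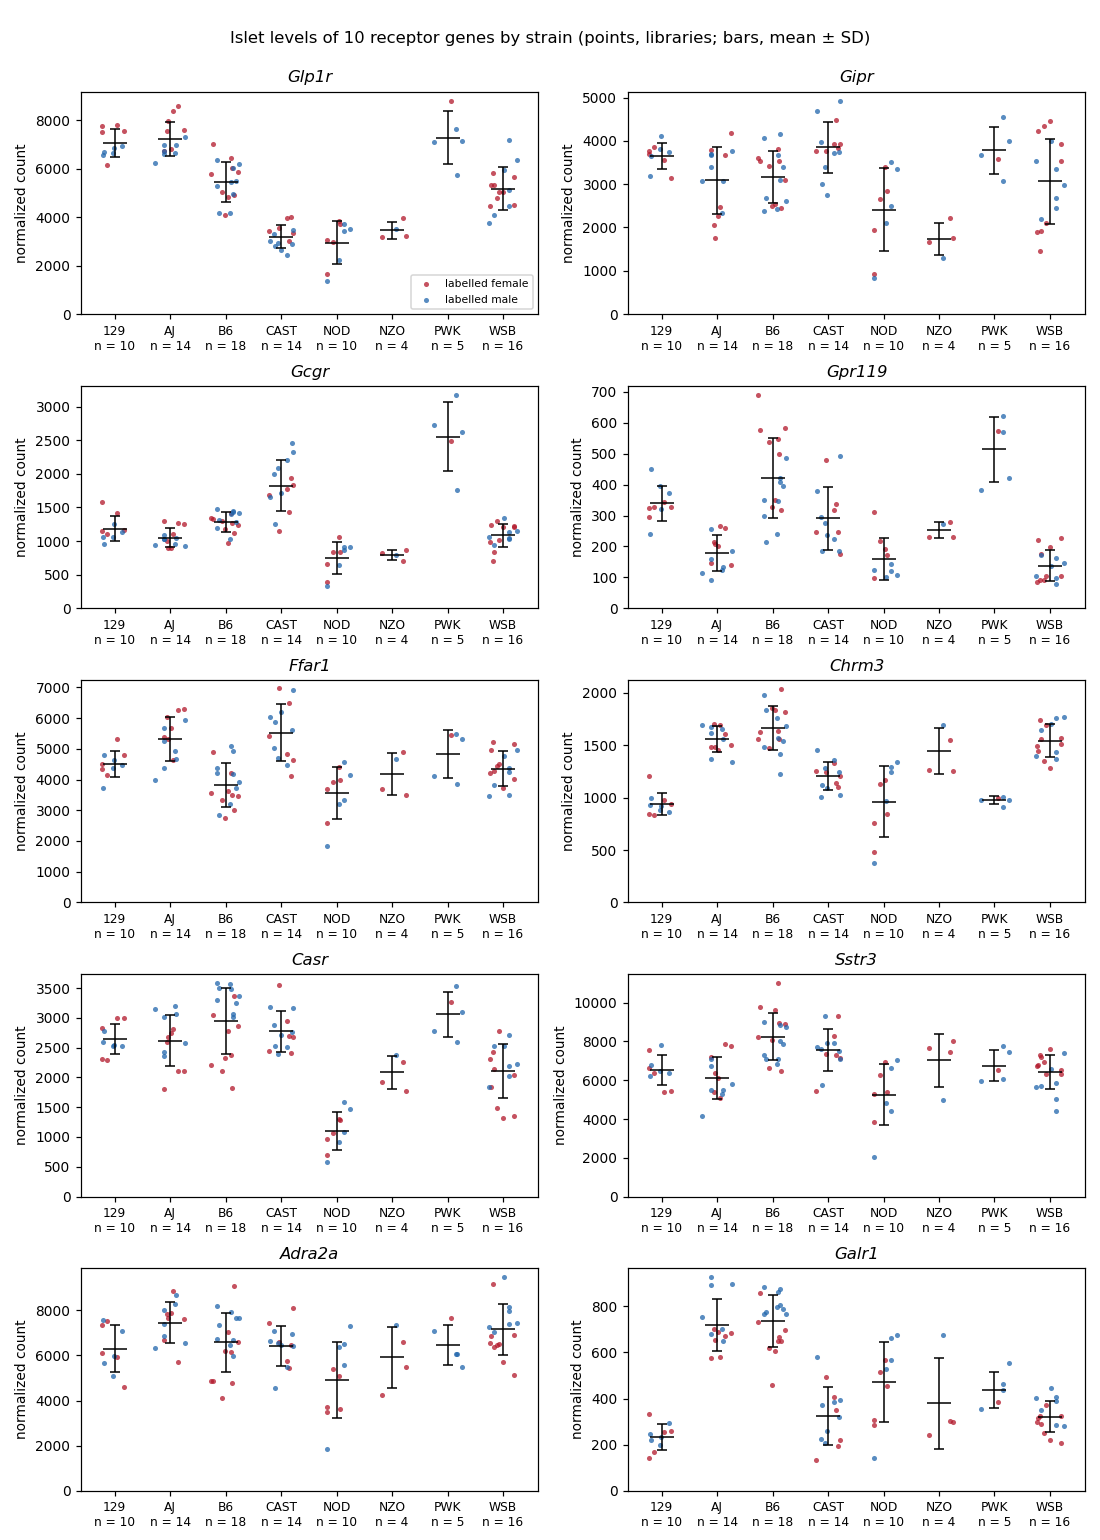
Normalized counts of the 10 receptor genes in the 8 strains, 1 panel per gene. Points are libraries coloured by their sex label, and bars give the mean ± SD. The Casr libraries of NOD reach 1584 at most, and the Glp1r libraries of CAST reach 4021 at most.

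Among the Gq-coupled receptors, Casr (ENSMUSG00000051980.13, chromosome 16, 36493696 to 36562141), the calcium-sensing receptor, was low in NOD. Its normalized counts in NOD ran from 581 to 1584 (median 1075). In the other strains they ran from 2297 to 3004 (median 2563) in 129, from 1805 to 3203 (median 2634) in AJ, from 1829 to 3584 (median 3061) in B6, from 2386 to 3557 (median 2700) in CAST and from 1325 to 2785 (median 2165) in WSB. The NZO libraries had 2258, 1920, 1778 and 2378 and the PWK libraries 3264, 3101, 3540, 2598 and 2780. The highest NOD library was below every library of 129, AJ, B6, CAST, NZO and PWK and overlapped with WSB. PWK exceeded NOD by 1.44 ± 0.139 (SE) on the log2 scale (2.71-fold, adjusted p 3.41e-15, edgeR), and the strains closest to NOD exceeded it by 0.95 ± 0.109 (WSB, adjusted p 1.29e-12) and 0.97 ± 0.149 (NZO, adjusted p 9.69e-08). The step from AJ to WSB (0.30 ± 0.095, adjusted p 0.00581, edgeR) was the only other one past the threshold.

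Chrm3 (ENSMUSG00000046159.16, chromosome 13, 9875486 to 10360847), the muscarinic acetylcholine receptor of the beta cell, had its highest mean normalized count in B6 and its lowest in 129. Its normalized counts ran from 1226 to 2040 (median 1633) in B6, from 1343 to 1701 (median 1584) in AJ and from 1281 to 1773 (median 1536) in WSB, and the NZO libraries were at 1548, 1265, 1258 and 1698. They ran from 1010 to 1456 (median 1224) in CAST and from 375 to 1343 (median 1052) in NOD. The PWK libraries lay close together at 999, 973, 1007, 910 and 973, and those of 129 ran from 839 to 1207 (median 923). All libraries of B6, AJ, WSB and NZO were above all of 129 and PWK. B6 exceeded 129 by 0.82 ± 0.097 (SE) on the log2 scale (1.77-fold, adjusted p 1.65e-11, edgeR). The step from CAST to PWK (0.31 ± 0.127, adjusted p 0.0389, edgeR) was the only one between neighbours that passed. On the TPM scale both ends of the order changed, with AJ highest at 19.4 ± 1.72 (SD, n = 14) and NOD lowest at 10 ± 3.1 TPM (SD, n = 10). The difference of B6 and 129 was smaller there, 17 ± 4.28 (SD, n = 18) against 12.3 ± 1.39 TPM (SD, n = 10), and it still passed in limma's test on log2(TPM + 1), at 0.40 with an adjusted p of 0.00396.

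Ffar1 (ENSMUSG00000044453.5, chromosome 7, 30857390 to 30861564), the fatty acid receptor, varied less. Its mean normalized count lay between 3572 ± 846 in NOD (SD, n = 10) and 5521 ± 923 in CAST (SD, n = 14), and the libraries of these strains overlapped, at 1851 to 4560 and 4117 to 6984. CAST exceeded NOD by 0.63 ± 0.101 (SE) on the log2 scale (1.55-fold, adjusted p 6.4e-08, edgeR). With the immune marker level in the model it was 0.35 (adjusted p 0.101) and with the beta cell marker level 0.19 (adjusted p 0.0814), and neither passed. On the TPM scale AJ, at 60.4 ± 10.8 (SD, n = 14), and not CAST was highest. No step between neighbours passed. Of the 28 pairs of strains 15 did, against 50.3% of such tests over all genes.

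Of the inhibitory receptors, Galr1 (ENSMUSG00000024553.7, chromosome 18, 82392380 to 82406777), a galanin receptor, differed most between strains. Its normalized counts ran from 460 to 884 (median 766) in B6 and from 578 to 926 (median 686) in AJ. In NOD they ran from 142 to 675 (median 521), the PWK libraries had 385, 554, 438, 463 and 353, and the NZO libraries had 301, 243, 297 and 675. Counts ran from 135 to 582 (median 336) in CAST, from 208 to 445 (median 318) in WSB and from 140 to 332 (median 241) in 129. All libraries of B6 and AJ were above all of 129 and WSB. B6 exceeded 129 by 1.64 ± 0.157 (SE) on the log2 scale, or 3.12-fold (adjusted p 2.81e-15, edgeR). The steps from AJ to NOD (0.615 ± 0.155, adjusted p 0.00034) and from WSB to 129 (0.46 ± 0.154, adjusted p 0.00832) passed edgeR's test. The mean was lowest in 129, although libraries of CAST, NOD, WSB and NZO lay within or below the range of 129. Of the 129 libraries 6 went against their sex label, and without the 12 such libraries B6 exceeded 129 by 1.83 (adjusted p 8.17e-12, edgeR).

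Sstr3 (ENSMUSG00000044933.3, chromosome 15, 78537008 to 78544685), a somatostatin receptor of the beta cell, and Adra2a (ENSMUSG00000033717.5, chromosome 19, 54044151 to 54048982), the adrenergic receptor through which adrenaline curbs insulin release, had fitted ratios between strains close to that of Ffar1. The mean normalized count of Sstr3 lay between 5260 ± 1573 in NOD (SD, n = 10) and 8245 ± 1227 in B6 (SD, n = 18). For Adra2a the means lay between 4895 ± 1683 in NOD (SD, n = 10) and 7454 ± 917 in AJ (SD, n = 14). The libraries of the highest and lowest strain overlapped for both genes. B6 exceeded NOD by 0.65 ± 0.103 (SE) on the log2 scale for Sstr3 (1.57-fold, adjusted p 4.92e-08, edgeR), and AJ exceeded NOD by 0.62 ± 0.119 for Adra2a (1.53-fold, adjusted p 4.52e-06). With the immune marker level in the model neither passed (0.10, adjusted p 0.737, and 0.16, adjusted p 0.55). With the beta cell marker level Sstr3 passed at 0.32 (adjusted p 0.0101) and Adra2a did not (0.16, adjusted p 0.273, edgeR). No step between neighbouring strains passed for either gene. Of the 28 pairs of strains, 11 passed for Sstr3 and 6 for Adra2a, against 50.3% of such tests over all genes.

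NOD was the strain with the lowest mean normalized count for 6 of the 10 genes (Glp1r, Gcgr, Ffar1, Casr, Sstr3 and Adra2a). Of the 70 tests of a receptor gene in NOD against another strain, 53 (75.7%) were past the threshold with the lower level in NOD and 3 with the higher level. Over all genes, 28% of such tests were past the threshold with the lower level in NOD and 33.1% with the higher level. Without NOD, 105 of the 210 remaining tests (50%) passed, against 46.7% over all genes. Immune cell markers were high in most libraries of NOD. The summed TPM of 19 markers of T cells, B cells and macrophages ran from 61.9 to 4016 around a median of 710 in NOD, whereas in the other strains the highest library was at 252 TPM. None of these markers was at 0 in all libraries of NOD. In the NOD library with the highest sum (4016 TPM), Glp1r had 1359 normalized counts, Casr 581, Sstr3 2020 and Adra2a 1869, and 9 of the 10 genes were at their lowest NOD value there, Gpr119 being the exception. The NOD library with the lowest sum (61.9 TPM) lay within the range of the other strains, and it had 3729 for Glp1r, 1584 for Casr, 6618 for Sstr3 and 6530 for Adra2a. The order did not hold library by library: a NOD male at 159 TPM, within the range of the other strains, had 2235 for Glp1r, 2101 for Gipr and 924 for Casr, below a NOD female at 1069 TPM with 3704, 2854 and 1277. In the library with the lowest sum, the Casr count of 1584 was below every library of 129, AJ, B6, CAST, NZO and PWK. When the immune marker level was added to the edgeR model, 19 of the 70 tests (27.1%) passed with the lower level in NOD and 5 with the higher level, against 11.8% and 12.8% over all genes. With the beta cell marker level 27 (38.6%) passed as lower and 9 as higher, against 18.7% and 26.6% over all genes. With the immune marker level, PWK still exceeded NOD by 1.16 on the log2 scale for Casr (adjusted p 4.63e-09), by 1.11 for Glp1r (adjusted p 2.22e-09) and by 1.40 for Gcgr (adjusted p 2.15e-11). The differences from NOD of Ffar1, Sstr3 and Adra2a did not pass in that model, as given above. Without the 12 libraries that went against their sex label, which include the NOD libraries with the 2 highest sums, 40 of the 70 tests passed as lower in NOD and 5 as higher, against 22.3% and 29.2% over all genes. The summed beta cell markers were also low in NOD, with a median of 325313 TPM against 526901 in AJ. Summed TPM was about as low in PWK (330789), but the marker level used in the model, the log2 of the mean of the 10 markers each scaled to its own mean, had a median of -0.32 in NOD and -0.349 in NZO against -0.0293 in PWK and 0.114 in AJ. The part of beta cell content in the levels of NOD was not tested apart from these fits.

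Ratios between receptors within a library do not depend on the size of the library. The size of those with Glp1r rests on the 1480 bases that the files give it in every library, so the ratios are compared between strains only. Whether a longer transcript model would change all strains alike was not tested. The ratio of Glp1r to Gipr, both in TPM, was lowest in CAST at 1.60 ± 0.254 (SD, n = 14), where the libraries ran from 1.20 to 1.95. It was 2.59 ± 0.545 in NOD (SD, n = 10), 3.23 ± 0.48 in B6 (SD, n = 18), 3.87 ± 0.509 in 129 (SD, n = 10) and 4.62 ± 1.52 in AJ (SD, n = 14). No library of NOD, B6, 129, AJ, NZO or PWK had a ratio as low as any of CAST, and the lowest of WSB, at 1.87, lay within the CAST range. The means of AJ and WSB mix the ranges of library numbers, between which Gipr differed: the ratio was 5.40 ± 1.61 (SD, n = 8) in AJ libraries numbered 1 to 32 and 3.58 ± 0.409 (SD, n = 6) in those numbered 34 to 65. In WSB it was 4.83 ± 1.31 (SD, n = 7) and 2.42 ± 0.456 (SD, n = 9), and in CAST 1.64 ± 0.283 (SD, n = 8) and 1.54 ± 0.221 (SD, n = 6). In CAST the ratio of Gcgr to Glp1r was 0.421 ± 0.117 (SD, n = 14), against 0.252 ± 0.0393 in PWK (SD, n = 5) and 0.107 ± 0.0144 in AJ (SD, n = 14). For Glp1r against the inhibitory Adra2a the ratio was 1.35 ± 0.24 in CAST (SD, n = 14), 1.61 ± 0.295 in NZO (SD, n = 4) and 3.09 ± 0.652 in 129 (SD, n = 10). CAST had the highest mean normalized count of Gipr, the second highest of Gcgr and the second lowest of Glp1r.

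Across the 91 libraries the receptor genes tended to be high together. The Pearson correlation of log2(normalized count + 1) was above 0 for 43 of the 45 pairs of genes, from -0.111 for Gpr119 and Adra2a to 0.734 for Gipr and Gcgr, with a median of 0.347. With the strain means taken out it ran from -0.221 to 0.728, again for Gipr and Gcgr, with a median of 0.384. Over all pairs of the 15204 genes the median was 0.00 across libraries and 0.01 with the strain means taken out. The levels also moved with marker levels: the correlation with the beta cell marker level ran from 0.073 for Gpr119 to 0.735 for Adra2a, and that with the immune marker level from -0.721 for Casr to -0.0586 for Galr1. The part of cell composition in these correlations was not tested. Nor was that of the ranges of library numbers, which remain when the strain means are taken out. Gipr, Gcgr, Chrm3 and Casr differed between these ranges, as described below. All these values share libraries and depth and are a description. Of all 15204 genes, those most like Glp1r over the libraries were Scgn, which encodes the calcium-binding protein secretagogin (r = 0.845), Ptprm (0.837) and Vps11 (0.826). For Gipr they were Carmil3 (0.883), Mapre3 (0.856) and Nisch (0.826), and these correlations were as high with the strain means taken out (0.882, 0.856 and 0.813). Gcgr was most like Grip1 (0.854), Rab11fip3 (0.843) and Syt2 (0.830). The genes most like Casr were Aff2 (0.888), the potassium channel gene Kcnma1 (0.865) and Dmxl2 (0.853). For Chrm3 they were Nell1 (0.827), Scly (0.808) and Atp6v1c1 (0.803). Ffar1 was most like Pank1 (0.773), Akr1c13 (0.731) and Hspa12a (0.711). Sstr3 was most like Gdap1l1 (0.781), Kcnj11 (0.760), which encodes the pore of the ATP-sensitive potassium channel, and Mapk8ip2 (0.732). For Adra2a they were Fam122a (0.772), Gnaz (0.765), which encodes an inhibitory G protein subunit, and Maged1 (0.751). Gpr119 was most like Zfp950 (0.782), RP23-304K3.1 (0.730) and Muc4 (0.721), and Galr1 most like Hapln4 (0.742), Ptprt (0.730) and Cisd2 (0.717). With the strain means taken out, the correlations of Gpr119 were 0.421, 0.0629 and 0.172 and those of Galr1 0.31, 0.296 and 0.256, in the same order of genes. For the other 8 receptors they lay between 0.425 and 0.882.

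The level of Gipr moved with the range of library numbers within the strains that have libraries in both ranges. In WSB the 7 libraries numbered 1 to 32 had a mean of 2144 ± 480 normalized counts (SD) and the 9 numbered 34 to 65 a mean of 3786 ± 570. In B6 the means were 2586 ± 231 (SD, n = 8) and 3627 ± 313 (SD, n = 10), and in AJ 2591 ± 627 (SD, n = 8) and 3752 ± 251 (SD, n = 6). In CAST the means were 3824 ± 597 (SD, n = 8) and 3887 ± 622 (SD, n = 6). With the number range as a term in edgeR, Gipr was higher in the later range by 0.48 ± 0.0674 (SE) on the log2 scale (adjusted p 3.27e-08). Gcgr was also higher there, by 0.21 ± 0.0511 (adjusted p 0.000466). Chrm3 fell by 0.18 (SE 0.0321, adjusted p 4.6e-06) and Casr fell by 0.27 (SE 0.0504, adjusted p 9.8e-06). The other 6 genes did not pass, and over all genes 44.4% did, so 4 of 10 is close to the background. The step differed between the 4 strains for Gipr (interaction, adjusted p 0.0105) and for Sstr3 (adjusted p 0.0134), against 7.01% of all genes. For Gipr the step was 0.83 ± 0.115 in WSB and 0.01 ± 0.121 in CAST, and for Sstr3 it was 0.38 ± 0.0978 in AJ and -0.22 ± 0.099 in CAST.

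**Figure D4:**
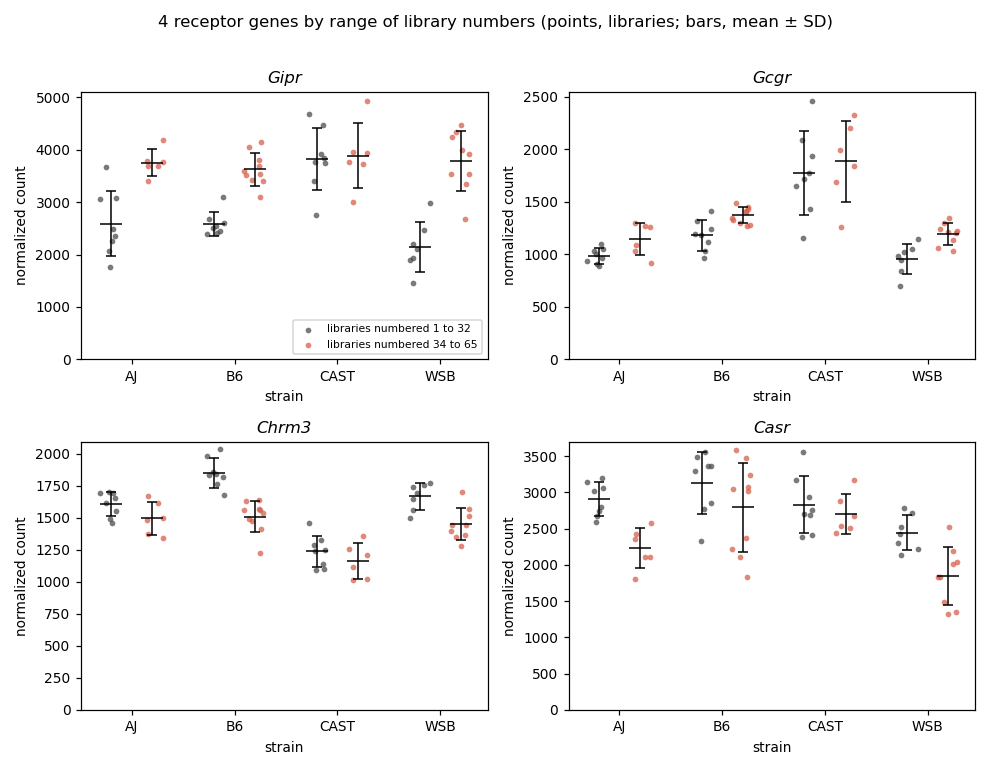
Normalized counts of Gipr, Gcgr, Chrm3 and Casr in AJ, B6, CAST and WSB, by range of library numbers. Points are libraries and bars the mean ± SD. Gipr stands at 2144 and 3786 on average in the lower and higher range of WSB, and at 3824 and 3887 in CAST.

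For Gipr, CAST was higher than each of AJ, B6 and WSB in the lower range, where the other 3 pairs did not pass. Among the libraries numbered 1 to 32, CAST exceeded WSB by 0.84 on the log2 scale (adjusted p 2.13e-06, edgeR), whereas among those numbered 34 to 65 the difference was 0.06 (adjusted p 0.61) and none of the 6 pairs passed. For Sstr3, AJ minus CAST was -0.58 (adjusted p 7.3e-07) in the lower range and 0.02 (adjusted p 0.922) in the higher one, and for Gpr119 it was -0.88 (adjusted p 0.000966) and -0.56 (adjusted p 0.0817, edgeR). Glp1r in B6 minus WSB was -0.14 (adjusted p 0.338) and 0.25 (adjusted p 0.00792). Other differences passed in both ranges. Glp1r was higher in AJ than in CAST by 1.14 (adjusted p 4.05e-10) and 1.20 (adjusted p 2.2e-11, edgeR). The same held for Gcgr, with CAST above AJ in both ranges: AJ minus CAST was -0.84 (adjusted p 3.26e-08) and -0.73 (adjusted p 8.94e-07, edgeR). For Galr1, B6 exceeded WSB by 1.13 (adjusted p 1.83e-06) and 1.24 (adjusted p 1.15e-10), and for Gpr119 by 1.38 (adjusted p 1.17e-05) and 1.78 (adjusted p 2.94e-08). Of the 60 tests of a receptor gene between a pair of these 4 strains, 39 (65%) passed among the libraries numbered 1 to 32 and 33 (55%) among those numbered 34 to 65, against 43.4% and 42.8% over all genes. In both ranges 28 passed, each in the same direction, 11 passed in the lower range alone, 5 in the higher range alone and 16 in neither.

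Sex differences of the receptor genes were small, and which of them passed the threshold depended on the libraries that went against their sex label. With the labels as given, Galr1 alone passed, higher in males by 0.29 ± 0.0789 (SE) on the log2 scale (adjusted p 0.0189, edgeR), and 4.01% of all genes passed. The single NZO male library had 675 normalized counts of Galr1 against 243 to 301 in the 3 NZO females. This library held both Xist (1082 counts) and Y-linked counts (2905), and without it the difference was 0.25 ± 0.0782 with an adjusted p of 0.0507 (edgeR), which did not pass. Without the 12 libraries against their label, 5 of the 10 genes passed, and so did 9.79% of all genes. Galr1 (0.38 ± 0.0724, adjusted p 9.26e-05) and Casr (0.21 ± 0.0516, adjusted p 0.00382) were higher in males. Gpr119, which lies on the X chromosome, fell by 0.37 (SE 0.0978, adjusted p 0.00592), Glp1r fell by 0.14 (SE 0.0431, adjusted p 0.0182) and Sstr3 fell by 0.15 (SE 0.0497, adjusted p 0.0386) from females to males in the same edgeR fit.

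In B6, where every library matched its label, Casr had a mean of 3347 ± 206 normalized counts in the 9 male libraries (SD), from 3019 to 3584, and of 2545 ± 497 in the 9 female ones, from 1829 to 3366. Galr1 had 814 ± 48 in the males and 660 ± 107 in the females, and Gpr119 had 351 ± 88 in the males and 493 ± 131 in the females. The ranges of the sexes overlapped for all 3 genes. Acinar cell markers split with sex in B6: the summed TPM of 10 markers ran from 24846 to 316292 (median 134586) in the females and from 6490 to 121342 (median 15188) in the males. The B6 female with the highest sum had 1829 counts of Casr, the lowest of the strain, and the one with the lowest sum had 3050. Others went against this order, such as a female at 60020 TPM with 3366 counts and a male at 121342 TPM with 3365, against 2777 in a female at 112099 TPM. The part of acinar RNA in these sex differences was not tested within B6. In CAST, Glp1r had 3550 ± 383 in the 6 female libraries (SD) and 2932 ± 338 in the 8 male ones. In B6 its means were closer, 5554 ± 907 in the 9 females and 5343 ± 806 in the 9 males. In WSB, by label, males were higher, at 5260 ± 1262 (SD, n = 7) against 5105 ± 475 (SD, n = 9). Whether the sex difference varied between strains was tested over the 6 strains other than NZO and PWK. None of the 10 genes passed, none had an unadjusted p under 0.05 in edgeR either, with upper-quartile or with TMM normalization, and 5.90% of all genes passed. Without the libraries against their label, Adra2a had an unadjusted p of 0.0334 and an adjusted p of 0.124.

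**Figure D5:**
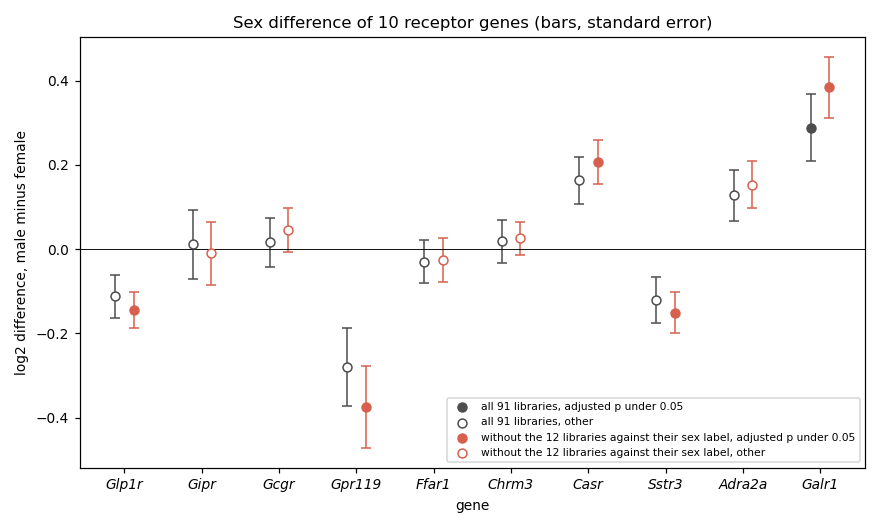
Log2 difference between male and female libraries for each receptor gene, with standard errors, over all 91 libraries (grey) and without the 12 libraries against their sex label (red). Filled points have an adjusted p under 0.05, which holds for 1 gene with all libraries and for 5 without the 12.

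The files also give the mean length of the transcripts to which the reads of a gene were assigned, which moves when the mix of transcripts of a gene moves. For Gipr this length was 2847 bases ± 31 in 129 (SD, n = 10) and 2832 ± 55 in NOD (SD, n = 10), but 2623 ± 45 in WSB (SD, n = 16), 2640 ± 41 in AJ (SD, n = 14) and 2647 ± 25 in B6 (SD, n = 18). The lowest 129 library, at 2783 bases, was above the highest library of WSB, AJ and B6. In GENCODE M21, Gipr has a coding transcript of 2856 bases and 3 of other types, a decay target of 1084 bases and retained introns of 783 and 3182 bases. All libraries of 129, NOD, NZO and PWK are numbered 66 to 100, and in those strains the length was at least 2727 bases, so strain and number range cannot be told apart here. Within AJ, B6, CAST and WSB, whose libraries are in both ranges, CAST had the longest mean at 2723 ± 47 (SD, n = 14). For Chrm3 the length was 4230 ± 137 bases in PWK (SD, n = 5) and 3799 ± 106 in 129 (SD, n = 10), and the annotation gives coding transcripts of 1770 and 4336 bases. Glp1r, Gpr119, Ffar1, Adra2a and Galr1 had the same length in every library. A gene with no alternative transcript in the annotation behind the files would show a constant length in any case. The transcripts that this annotation holds for these genes were not examined, so their constant length does not show whether the mix moved.

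The other genes of these pathways were described from lists, by the same strain test. Over all genes tested 97.4% passed, 44.4% also had a ratio of at least 2, and the median ratio was 1.83. The list of other Gs-coupled receptors holds 24 genes, among them Ramp1 and Ramp2, which encode accessory proteins of receptors. Of the 24, 19 were high enough to be tested and all 19 passed. Of these, 18 had a ratio of at least 2, and the median ratio of the 19 was 6.61. Of the other Gq-coupled receptors, 19 of 26 could be tested and all 19 passed, 17 with a ratio of at least 2 (median 4.54), and of the other Gi-coupled receptors 23 of 35 could be tested and 22 passed, all 22 with such a ratio (median 3.90). The median ratio of the 10 receptor genes was 2.37, and the difference from these lists was not tested. Adora2b, an adenosine receptor coupled to Gs, had 508 ± 161 normalized counts in AJ (SD, n = 14) and 14 ± 5.49 in 129 (SD, n = 10), a ratio of 36.2. Crhr1, a receptor of corticotropin-releasing hormone, was highest in NOD, at 126 ± 34 (SD, n = 10), and lowest in PWK, at 5.27 ± 2.8 (SD, n = 5). The PWK libraries ran from 1.57 to 8.14, close to the floor of 3 counts. Of the Gq-coupled receptors, Cckar, a cholecystokinin receptor that acinar cells also use, had 3452 ± 2049 normalized counts in CAST (SD, n = 14) and 119 ± 126 in AJ (SD, n = 14). The summed acinar markers moved the same way, with a median of 90935 TPM in CAST and 6238 in AJ, the lowest of the strains, and their part was not tested. Ednra, an endothelin receptor, had 466 ± 61.6 normalized counts in NZO (SD, n = 4) and 66.9 ± 7.72 in PWK (SD, n = 5). The summed TPM of 6 mesenchymal markers had a median of 188 in NZO and 87.3 in PWK, although it was lowest in CAST (38.2). Their part was not tested. The lactate receptor Hcar1, coupled to Gi, had 950 ± 177 normalized counts in AJ (SD, n = 14) and 61.9 ± 20.9 in B6 (SD, n = 18), and every AJ library was above every B6 library. For Ptger3, a prostaglandin receptor, the counts were 1252 ± 898 normalized counts in CAST (SD, n = 14) and 97.5 ± 35.6 in AJ (SD, n = 14), and the libraries of these strains overlapped.

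The list of ligand genes had the largest median ratio of the 8 pathway lists. It also holds genes for making or packaging transmitters (Chat, Slc18a3, Th and Dbh) and peptides that bind none of the 10 receptors, such as Npy. Of 16 genes of this list tested, 15 passed, all with a ratio of at least 2, and the median ratio was 8.58. Beside this list and those below, 97.4% of all genes passed, 44.4% also had such a ratio, and the median was 1.83. Gal encodes galanin, the ligand of Galr1, and had 963 ± 890 normalized counts in PWK (SD, n = 5) and 9.07 ± 2.41 in NZO (SD, n = 4). A single PWK library at 2457 raised that mean, which was 589 over the other 4. Npy, which encodes neuropeptide Y, had 2926 ± 1233 normalized counts in CAST (SD, n = 14) and 17.8 ± 14.8 in NZO (SD, n = 4), and without the highest NZO library, at 39.9, the NZO mean was 10.4. Downstream of the receptors, of 23 G protein genes 22 passed but 6 had a ratio of at least 2, with a median of 1.56, and Gng7, encoding a gamma subunit, had 151 ± 19.1 normalized counts in AJ (SD, n = 14) and 21.8 ± 4.15 in PWK (SD, n = 5). The 33 genes of cAMP synthesis, breakdown and targets all passed, 19 with a ratio of at least 2 (median 2.37), and Pde1c, a phosphodiesterase that breaks down cAMP, had 752 ± 93.2 normalized counts in AJ (SD, n = 14) and 160 ± 52.8 in NZO (SD, n = 4). Of 29 genes of phospholipase C and calcium release 28 passed, 15 with such a ratio (median 2.02), and Itpr1, an inositol trisphosphate receptor that releases calcium, had 4380 ± 957 normalized counts in 129 (SD, n = 10) and 948 ± 306 in NZO (SD, n = 4). All 20 genes of receptor desensitisation passed, 12 with such a ratio (median 2.40), and Rgs4, which shortens G protein signals, had 12812 ± 4996 normalized counts in NZO (SD, n = 4) and 1505 ± 549 in PWK (SD, n = 5), while Rgs5 had 10735 ± 2230 normalized counts in NZO (SD, n = 4) and 1479 ± 730 in CAST (SD, n = 14). Rgs5 is also 1 of the 6 mesenchymal markers used here and had the highest mean of them (39.6 TPM). The sum of the 6, which includes Rgs5, was highest in NZO (median 188 TPM) and lowest in CAST (median 38.2). Of the others, Pdgfrb was also highest in NZO and lowest in CAST, whereas Col1a1, Col1a2, Col3a1 and Dcn were highest in NOD. The part of such cells was not tested. Adcy7, Plcb2 and Gng2 were highest in NOD, where the immune markers were high, with 1417 ± 1171 (SD, n = 10), 657 ± 537 (SD, n = 10) and 719 ± 268 (SD, n = 10) normalized counts, and the part of immune cells in this was not tested.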

How the data were processed

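Libraries were prepared from the mRNA of whole islets and sequenced on HiSeq2500 instruments. The authors quantified reads with RSEM (version not given in the sources used here) on mm10 with GENCODE vM18; whether strain genomes were used is not given. Per the file headers, each deposited file holds expected counts, TPM, FPKM and transcript lengths for 1 library. The deposited expected counts are estimates of reads per gene and were rounded to whole numbers. The deposited TPM values are scaled by the authors to transcript length and library, and FPKM was not used. Strain and sex came from the labels.

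Analysis was restricted to coding genes of the autosomes and the X chromosome (names and positions from GENCODE M21, which matched 54079 of 54146 genes), the 10% with the lowest variance were removed, and genes non-zero in at least 85% of libraries were tested (15204 genes, 94.9% of the counts). edgeR 4.0.16 in R 4.3.3 fitted strain and sex with upper-quartile normalization over all 91 libraries, and p-values were adjusted within each contrast. Alternatives used limma 3.58.1, DESeq2 1.42.0, other normalizations, filters, covariates and subsets. The number range fits and those without single libraries of B6 and NZO were added after seeing the data. The code was tested on simulated data, where 96% of 200 genes changed 2-fold between strains were recovered among 15204. The 10 genes, the pathway lists and the tests were chosen with earlier results of these data known. Named genes are the 10 receptors, the 2 genes of each list with the largest strain ratio past the threshold at a mean of at least 1 TPM, and the 3 genes most correlated with each receptor. Promoters came from RefSeq (GRCm38.p6).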

Additional observations from a re-analysis of the deposited data

Results flagged for a closer look

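Chrm3 in 129 library 80, which carries a female label that its Xist and Y-linked counts go against, had 1207 normalized counts, whereas the other 9 libraries of 129 ran from 839 to 994. Galr1 in the single NZO male library, number 90, had 675 normalized counts, whereas the other 3 NZO libraries ran from 243 to 301. Both lay further from the rest of their strain than Dixon's 95% limit, in 40 groups tested, and chance alone flags about 1 in 20 groups. The step between the ranges of library numbers differed between AJ, B6, CAST and WSB for Gipr (edgeR interaction, adjusted p 0.0105) and for Sstr3 (adjusted p 0.0134).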

How the results depend on the processing

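All 10 receptor genes passed the strain test in the main fit; with a ratio of at least 2 also required, 6 did, and 6751 of all genes did. With the immune or the beta cell marker level in the model 9 passed (not Adra2a, adjusted p 0.14 and 0.188), and over 129, NOD, NZO and PWK alone 8 passed (not Sstr3, 0.101, or Adra2a, 0.152). The number of receptor genes with a sex difference, 1 in the main fit, was 5 without the libraries against their sex label, 3 with the beta cell marker level in the model, and 2 each without NOD, over AJ, B6, CAST and WSB (with or without the number range) and with DESeq2. It was 0 over 129, NOD, NZO and PWK, with the libraries of each sample summed, and with limma on log2(TPM + 0.1) or log2(TPM + 1). Leaving out 1 NZO or PWK library gave 0 to 1, with 0 without NZO library 90. With the immune marker level in the model, the differences of Ffar1 (0.35), Sstr3 (0.10) and Adra2a (0.16) from NOD no longer passed, nor with the beta cell marker level did those of Ffar1 (0.19) and Adra2a (0.16). In the latter model Sstr3 fell from 0.65 to 0.32 (adjusted p 0.0101) and Gipr, CAST minus NZO, from 1.15 to 0.74 (adjusted p 0.00266), both still past the threshold. The causes were not tested. None of the differences between the highest and lowest strain changed direction under the alternatives run. No paired analysis was possible because the labels give no replicate numbers shared between groups.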
